A study of Mus musculus with 33 samples.

Results

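The comparison described here is that of mice drinking antibiotics (Abx) with mice drinking water (H2O), all of which had received morphine. It was made in RNA from the nucleus accumbens, the ventral striatal region of the brain that takes part in reward. Its members are the libraries that the labels place in the Abx morphine and H2O morphine groups, 5 in each group, together 10 of the 33 libraries of the series. Every gene whose counts passed a filter in these 10 libraries was tested, which gave 14298 genes.

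The series set conventional mice on water, conventional mice on antibiotics and germ-free mice side by side, each given saline or morphine. All mice were C57BL/6J, and those of both groups used here were 7 to 9 weeks old. Per the labels the animals were bought commercially and are those of an earlier publication. They were housed 4 to 5 to a cage, and whole cages were assigned to a drink. The Abx drink held 4 agents, vancomycin and bacitracin (each at 0.5 mg/mL), the aminoglycoside neomycin (2 mg/mL) and the antifungal pimaricin (1.2 µg/mL), and the labels describe the H2O mice as having a normal microbiome. Each drink was given from 2 weeks before the procedures until their end. Both groups were given morphine on 7 days at a daily 20 mg/kg, so morphine does not differ between them. The time from the last injection to dissection is not given in the labels used here, nor are cages, dissection batches or sequencing dates. Mice of 1 group may therefore share a cage, and p-values measure the spread between these mice.

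Antibiotics that act in the gut deplete its bacteria and with them the short-chain fatty acids and other metabolites those bacteria make. Microglia, the resident immune cells of the brain, and oligodendrocytes, the cells that make myelin, are among the brain cells reported to depend on the microbiota. Morphine acts on opioid receptors of striatal circuits and, given repeatedly, engages the adrenal stress axis, whose hormone corticosterone binds the glucocorticoid receptor. That receptor is a transcription factor that raises a well-described set of genes in brain cells.

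Reads counted to genes ranged from 9490687 to 15330947 in H2O and from 11123545 to 13701331 in Abx morphine libraries. Within a group, pairs of libraries had an r across genes of 0.978 to 0.993 and differed by more than counting noise (chi-squared per degree of freedom 3.07 to 20.0), so each was counted as a library of its own. Markers of medium spiny neurons, the principal striatal cells, were present in every library, with a mean log2 CPM (read counts scaled to a common library size) of 7.88 to 8.53. H2O replicate 4 stood apart from its group. The mean log2 CPM of 16 markers of cortical-type glutamatergic neurons was 5.07 in that library against 1.98 to 3.25 in the other H2O libraries, and 3.34 to 4.73 in the Abx libraries. Slc17a7, the vesicular glutamate transporter of those neurons, was at 6.95, 124, 996, 69.4 and 3.48 CPM in H2O replicates 2 to 6 and at 849.8, 575, 133, 561 and 267 CPM in Abx replicates 1 to 5. On the first principal component (39% of the variance) replicate 4 lay on the side of the Abx libraries, at 13.2 against 4.28 to 28.3, while the other H2O libraries lay from -28.7 to -15.2. None of the 16 cortical markers passed the test (median log2 difference 0.41). Without H2O replicate 4, 9 did (median 1.35), in a fit with 3010 calls over all genes. Leaving that library out also left the groups with no overlap in the mean level of these markers (1.98 to 3.25 in H2O and 3.34 to 4.73 in Abx libraries). Values without replicate 4 therefore compare groups that differ more in these markers. In H2O replicate 6 Neurod2 and Neurod6, transcription factors of cortical neurons, had no read, and no other marker of the list was at 0 in any library. The part of these markers in the results was not tested. Each count below was also made without H2O replicate 4 and with the cortical marker level as a covariate.

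Abx morphine mice differed from H2O morphine mice in many genes by small amounts. In edgeR's quasi-likelihood test with Benjamini-Hochberg adjustment, 2395 of 14298 genes (16.8%) had an adjusted p under 0.05, of which 1093 (7.64% of all genes) were higher and 1302 (9.11%) were lower in Abx mice. The median size of a called change was 0.33 on the log2 scale, 82.1% of the calls were under 1.5-fold, and 90 were over 2-fold, 63 of them higher. Groups did not overlap in any library for 879 genes that were higher (6.15%) and 1040 that were lower (7.27%). Without H2O replicate 4 the calls numbered 3010, and without Abx replicate 1 they numbered 1618. The median log2 difference over all genes was -0.00. Below, differences are log2 values, Abx minus H2O, ± the standard error of the fit, and levels are CPM in H2O replicates 2 to 6 and Abx replicates 1 to 5, in that order.

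Of 39 gene lists, glucocorticoid-response genes held the highest share of members that rose, and microglia and myelin markers the highest shares that fell among lists of 5 or more tested genes. The plot of calls by list gives these shares beside those of all genes.

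**Figure D1:**
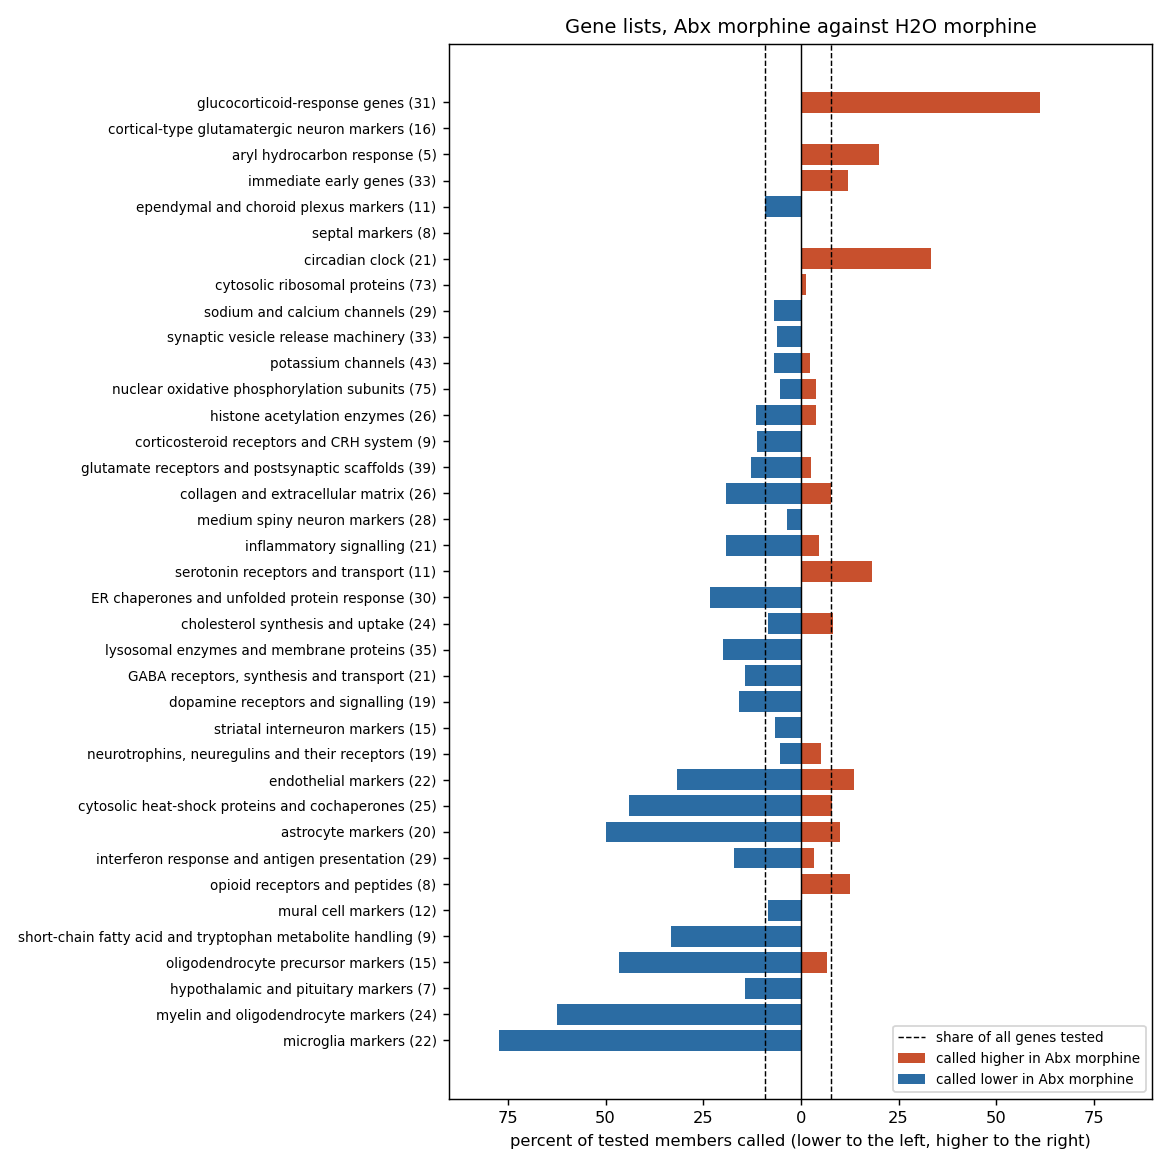
Percent of the tested members of each gene list that passed edgeR's quasi-likelihood test (adjusted p under 0.05) as higher (right) or lower (left) in Abx than in H2O morphine mice, for lists with at least 5 tested members (number in parentheses), ordered by median log2 difference. The dashed lines mark the shares of all genes, 7.64% higher and 9.11% lower, which glucocorticoid-response genes (19 of 31 higher), microglia markers (17 of 22 lower) and myelin markers (15 of 24 lower) exceed.

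Many genes that the glucocorticoid receptor is known to raise were higher in Abx morphine mice. Of 31 tested members of the list, 19 rose and none fell, against 7.64% of all genes higher. The median difference of the list was 0.49, against -0.00 for all genes, and 17 members had no overlap between the groups, against 6.15% of all genes. Plin4, which encodes perilipin 4, a coat protein of lipid droplets, was at 2.32, 4.25, 4.87, 4.14 and 5.13 CPM in H2O libraries and at 51.3, 47.5, 59.5, 66.5 and 55.6 CPM in Abx libraries. Each Abx library far exceeded the highest H2O library, and the difference of 3.73 ± 0.15 (13.3-fold, adjusted p = 5.85e-08) had the smallest p of all genes tested. Hif3a, a member of the hypoxia-inducible factor family, stood at 4.42, 5.07, 6.64, 6.25 and 4.80 CPM in H2O and 24.9, 21.6, 29.2, 21.9 and 15.9 CPM in Abx libraries, a difference of 2.04 ± 0.16 (adjusted p = 5.1e-05). Sult1a1, a sulfotransferase, stood at 6.74, 7.98, 6.51, 6.48 and 7.20 CPM in H2O and 21.8, 19.6, 22.5, 21 and 16.6 CPM in Abx libraries, a difference of 1.54 ± 0.10 (adjusted p = 1.17e-05). The groups were separate for both genes, and the lowest Abx library of each was Abx replicate 5.

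Fkbp5, a cochaperone that lowers the hormone affinity of the glucocorticoid receptor and is itself induced by it, read 55.9, 66.1, 55.7, 71.1 and 61.2 CPM in H2O and 140.2, 108, 163, 142 and 115 CPM in Abx libraries. It rose 2.15-fold (1.11 ± 0.11, adjusted p = 0.000143), with no overlap. Sgk1, the serum- and glucocorticoid-regulated kinase, read 74.6, 75.2, 70.4, 74 and 67.5 CPM in H2O and 145, 220.3, 153, 104 and 111 CPM in Abx libraries. Its H2O libraries lay close together, whereas its Abx libraries ranged widely, with replicate 2 the highest and replicate 4 the lowest (1.02 ± 0.17, adjusted p = 0.00214). Cdkn1a, the cell-cycle inhibitor p21, read 14.4, 22.7, 16.3, 20.6 and 17.6 CPM in H2O and 53.1, 38.7, 63.2, 44.9 and 33.8 CPM in Abx libraries (1.34 ± 0.17, adjusted p = 0.000566). Zbtb16, a transcription factor also called PLZF, read 9.90, 7.38, 12.9, 7.68 and 7.95 CPM in H2O and 30.5, 20.1, 32.3, 34 and 22.9 CPM in Abx libraries (1.60 ± 0.18, adjusted p = 0.000376). Arrdc2, an arrestin-domain protein, read 8.84, 12.5, 9.93, 11.8 and 11 CPM in H2O and 27.6, 35.9, 34, 31.7 and 21.6 CPM in Abx libraries (1.47 ± 0.14, adjusted p = 0.000122). In these 3 genes too every Abx library lay above every H2O library.

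**Figure D2:**
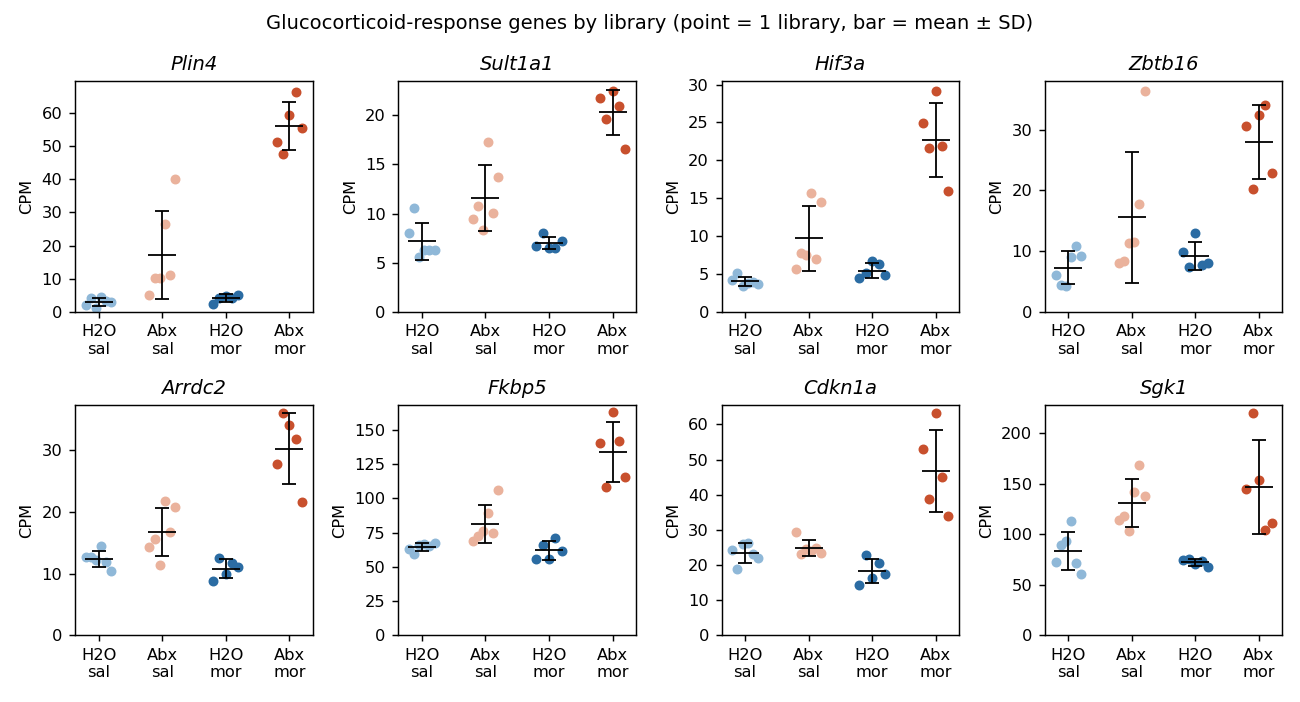
CPM of 8 glucocorticoid-response genes in each library of the 4 groups of conventional mice (points), with mean and SD (bars); each axis starts at 0. Plin4 averaged 4.14 CPM in H2O morphine and 56.1 CPM in Abx morphine libraries, and in all 8 genes the Abx morphine libraries lie above the H2O morphine libraries.

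Among the remaining members that rose, the kinase gene Map3k6 (1.27 ± 0.15) and Rasd1, a dexamethasone-induced Ras protein (1.29 ± 0.18), changed more than 2-fold. The transcription factor genes Klf9 (0.50) and Klf15 (0.54) and Tsc22d3, the anti-inflammatory protein GILZ (0.47), rose by less than 1.5-fold. So did Pdk4, an inhibitor of pyruvate dehydrogenase (0.53), Bcl6, a transcriptional repressor (0.49), and Gpd1, a glycerol-phosphate dehydrogenase (0.42). The 12 members that did not pass include Mt1 (0.20, adjusted p = 0.0546) and Mt2 (0.03, 0.878), metallothionein genes alike enough in sequence that reads may be shared, and Dusp1 (0.21, 0.57). They also include Angptl4 (-0.67, 0.0914), which passed as lower without H2O replicate 4. The receptor genes themselves did not pass, with Nr3c1 (the glucocorticoid receptor) at 89.6 ± 6.07 CPM in H2O and 84.5 ± 4.28 CPM in Abx libraries (-0.09 ± 0.06, adjusted p = 0.312) and Nr3c2 (the mineralocorticoid receptor) at -0.04 ± 0.06 (0.69). In their list of receptors and corticotropin-releasing hormone genes 1 of 9 members passed, the receptor cochaperone gene Fkbp4 (-0.29). That is 11.1% of the list, against 16.8% of all genes. The mean log2 CPM of the glucocorticoid list was 4.65 to 4.85 in H2O and 5.29 to 5.60 in Abx libraries. Between 18 and 20 members were higher when 1 library was left out (20 without H2O replicate 4), and 19 with the covariate.

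Promoters of 25 of the 31 tested members (16 of the 19 that rose) were found in RefSeq's mouse table (GRCm38.p6), as windows from 250 bases before to 50 bases after a gene start. A full palindromic glucocorticoid response element, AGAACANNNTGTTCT, was searched on both strands. Of 32851 promoters of all genes 3 held it (0.00913%), and among the members only Sgk1 did, in 1 of its 6 promoters. A relaxed form, GNACANNNTGTNC, which every full element also contains, was in 0.475% of all promoters (0.537% of genes) and in those of Sgk1, Map3k6 and Fam107a, which rose, and of Mt1, which did not pass. A match is a description of these letters and not a bound site. The promoters of Sgk1 (chr10:21993640-21993939, plus strand, full element in capitals, starting at position -189 from the gene start) and Map3k6 (chr4:133240568-133240867, plus strand, relaxed element in capitals, at -181) are shown 5′ to 3′ because they are the members over 2-fold higher with a match.
Sgk1: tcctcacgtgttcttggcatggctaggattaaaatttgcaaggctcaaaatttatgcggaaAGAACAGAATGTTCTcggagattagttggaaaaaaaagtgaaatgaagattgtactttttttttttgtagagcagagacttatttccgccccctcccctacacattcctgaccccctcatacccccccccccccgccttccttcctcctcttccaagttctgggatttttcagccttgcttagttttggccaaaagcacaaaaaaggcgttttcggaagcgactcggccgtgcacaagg
Map3k6: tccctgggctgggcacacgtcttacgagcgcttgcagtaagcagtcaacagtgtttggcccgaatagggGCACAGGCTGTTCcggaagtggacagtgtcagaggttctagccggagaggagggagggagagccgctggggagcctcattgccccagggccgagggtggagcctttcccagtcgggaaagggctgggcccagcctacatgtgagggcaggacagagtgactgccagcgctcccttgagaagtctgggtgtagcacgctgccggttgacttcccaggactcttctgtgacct

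Most microglial markers were lower in Abx morphine mice. Of 22 tested markers 17 fell and none rose, against 9.11% of all genes lower, and all 22 differences were below 0, with a median of -0.41 against -0.00 for all genes. In 13 of them the groups did not overlap, against 7.27% of all genes. Fcrls, an Fc receptor-like gene that marks microglia, read 29.9, 38.6, 33.6, 35.3 and 35.2 CPM in H2O and 16.1, 19.4, 10.4, 14.2 and 15.9 CPM in Abx libraries. Olfml3, a secreted protein of microglia, read 21.9, 26, 24.5, 25.8 and 25.1 CPM in H2O and 7.14, 11.8, 7.12, 6.66 and 12 CPM in Abx libraries. The highest Abx library of each lay well under the lowest H2O library, and Fcrls fell by 1.18 and Olfml3 by 1.46 on the log2 scale (standard errors 0.13 and 0.16, adjusted p = 0.00032 for both genes). Itgam, the integrin CD11b, read 35.6, 33.8, 31.6, 35 and 37.2 CPM in H2O and 19.97, 23.2, 20.00, 19.5 and 25 CPM in Abx libraries (-0.68 ± 0.08, adjusted p = 0.00046). Cx3cr1, the fractalkine receptor, read 69.3, 73.6, 69.5, 73.5 and 79 CPM in H2O and 51.6, 53.7, 48, 44.5 and 57.9 CPM in Abx libraries (-0.51 ± 0.07, adjusted p = 0.00078). Both fell with no overlap, but by less than Fcrls and Olfml3.

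The purinergic receptor genes P2ry13 (-0.83 ± 0.10) and P2ry12 (-0.44 ± 0.09), the complement gene C1qa (-0.41 ± 0.07) and Aif1, which encodes the microglial protein IBA1 (-0.67 ± 0.14), also fell. Csf1r, the receptor on whose signal microglia depend, fell least of the 17, by 0.20 (138 ± 7.52 CPM in H2O and 121 ± 4.41 CPM in Abx libraries, adjusted p = 0.0156), and Tmem119 by 0.33 (adjusted p = 0.0426). Trem2 (-0.39, adjusted p = 0.0646), Siglech (-0.20, 0.157), Ctss (-0.12, 0.316), C1qc (-0.05, 0.615) and Gpr34 (-0.12, 0.808) did not pass. In bulk tissue, fewer cells of a type and less RNA per cell cannot be told apart. The mean log2 CPM of the list was 4.78 to 4.99 in H2O libraries, 4.79 in replicate 4, and 4.23 to 4.60 in Abx libraries. When 1 library was left out, 15 to 19 members were lower, and with the cortical covariate 15 were.

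**Figure D3:**
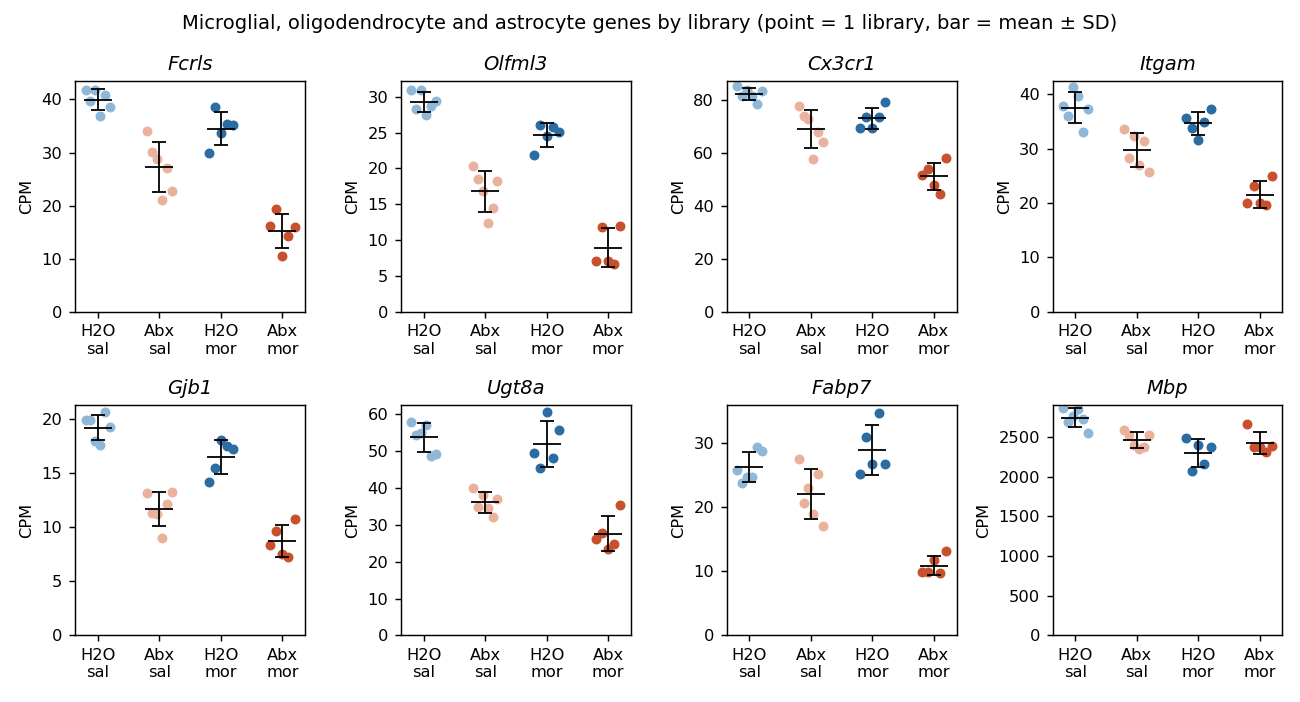
CPM of 4 microglial genes (top row), 2 oligodendrocyte genes, the astrocyte and progenitor gene Fabp7 and the myelin gene Mbp (bottom row) in each library of the 4 groups of conventional mice, with mean and SD; each axis starts at 0. The Abx morphine libraries lie below all H2O morphine libraries in every panel except that of Mbp, where the groups overlap.

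Many oligodendrocyte markers were lower as well, but Mbp, the most abundant of them, did not pass. Of 24 tested markers 15 fell and none rose (median -0.36), against 9.11% of all genes lower. Gjb1, the gap-junction protein connexin 32, read 14.2, 15.4, 18, 17.5 and 17.2 CPM in H2O and 8.31, 9.60, 7.51, 7.28 and 10.8 CPM in Abx libraries (-0.92 ± 0.12, adjusted p = 0.000602). Ugt8a, the enzyme that makes the myelin lipid galactosylceramide, read 49.4, 45.3, 60.6, 48 and 55.8 CPM in H2O and 26, 27.8, 23.5, 24.9 and 35.5 CPM in Abx libraries (-0.91 ± 0.11, adjusted p = 0.000553). In both genes every Abx library was under every H2O library. Olig2 (a lineage transcription factor, -0.68 ± 0.09), Trf (transferrin, -0.55 ± 0.07), Mag (myelin-associated glycoprotein, -0.35 ± 0.06) and Cnp (a myelin phosphodiesterase, -0.20 ± 0.05) fell by smaller amounts.

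The 9 members that did not pass include structural genes of myelin. Mbp, myelin basic protein, read 2489, 2072, 2402, 2160 and 2375 CPM in H2O and 2669, 2380, 2374, 2309 and 2385 CPM in Abx libraries (0.08 ± 0.06, adjusted p = 0.414). These groups overlapped, as did those of Mog, myelin oligodendrocyte glycoprotein (-0.15 ± 0.07, adjusted p = 0.148). Mobp had a positive difference (0.21 ± 0.07, 0.0687). The list's mean log2 CPM was 6.50 to 6.74 in H2O, with replicate 4 the highest, and 6.16 to 6.41 in Abx libraries. Leaving out any 1 library left 12 to 15 members lower and the covariate 13, but the fit of all 33 libraries left 7.

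**Figure D4:**
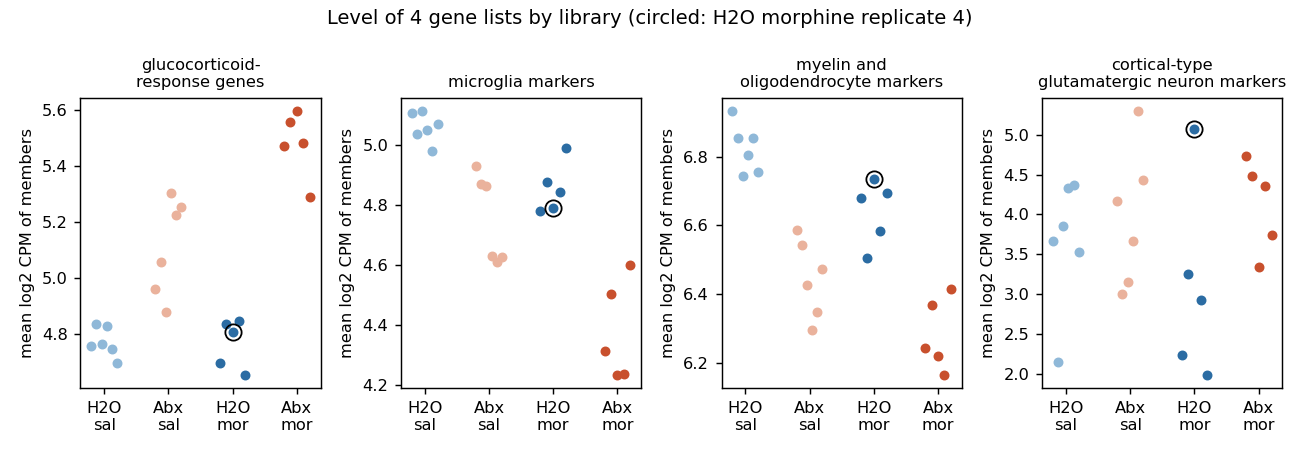
Mean log2 CPM of the members of 4 gene lists in each library of the 4 groups of conventional mice; each point is 1 library, H2O morphine replicate 4 is circled, and the axes do not start at 0. H2O and Abx morphine libraries are separate for glucocorticoid-response genes (4.65 to 4.85 and 5.29 to 5.60), microglia markers (4.78 to 4.99 and 4.23 to 4.60) and myelin markers (6.50 to 6.74 and 6.16 to 6.41), but not for cortical-type neuron markers, where the circled library is at 5.07.

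Some astrocyte and precursor markers were lower too. Of 20 astrocyte markers 10 fell and 2 rose (median -0.17), and of 15 markers of oligodendrocyte precursors 7 fell and 1 rose (median -0.25), against 9.11% of all genes lower and 7.64% higher. Olig1 and Olig2, among the precursor markers that fell, are also on the oligodendrocyte list above and were counted in both. Fabp7, a fatty acid-binding protein of astrocytes and progenitors, read 25.1, 30.9, 26.7, 34.6 and 26.7 CPM in H2O and 9.94, 9.91, 11.7, 9.69 and 13.1 CPM in Abx libraries. Its groups were far apart (-1.41 ± 0.11, adjusted p = 5.1e-05). The water channel gene Aqp4 (-0.47 ± 0.08) and the glutamate transporter gene Slc1a3 (-0.20 ± 0.04) fell by less, and Gfap, the intermediate filament raised in reactive astrocytes, was at 54.3 ± 5.45 CPM in H2O and 51 ± 3.14 CPM in Abx libraries (-0.09 ± 0.07, adjusted p = 0.399). The members that rose were Gjb6 (connexin 30, 0.64 ± 0.12) and Glul (glutamine synthetase, 0.13 ± 0.04), of which Glul is also on the glucocorticoid list. Grm3, a glutamate receptor that is strong in glia, fell from 112 ± 16.9 to 67.5 ± 5.93 CPM (-0.74 ± 0.09, adjusted p = 0.000628). Among precursor genes Gpr17, a receptor of differentiating precursors, read 81.9, 76.6, 80.6, 80.2 and 91.6 CPM in H2O and 54.8, 57.4, 59.5, 63.6 and 62.9 CPM in Abx libraries (-0.46 ± 0.06, adjusted p = 0.000602), and Cspg4, the proteoglycan NG2, fell by 0.39. Pdgfra, the receptor that defines these cells, did not pass (-0.17 ± 0.07, adjusted p = 0.103), and Vcan, versican, was higher (0.25 ± 0.07, 0.027). Leaving out any 1 library left 9 to 11 astrocyte and 7 to 9 precursor markers lower. The fit of all 33 libraries left 8 astrocyte and 4 precursor markers lower and none higher.

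Of 22 endothelial markers 7 fell and 3 rose, against 9.11% of all genes lower and 7.64% higher. Mfsd2a, the lysophospholipid transporter of the blood-brain barrier, read 24.4, 25.8, 27.8, 25.5 and 28.6 CPM in H2O and 45.1, 42.4, 47, 49.8 and 44.9 CPM in Abx libraries. The libraries of each group lay close together, and the difference was 0.79 ± 0.06 (adjusted p = 5.1e-05). Slc2a1, the barrier's glucose transporter (0.31 ± 0.07), and Abcg2, an efflux pump (0.43 ± 0.12, adjusted p = 0.0311), also rose. Those that fell include Cdh5 (VE-cadherin, -0.43 ± 0.08), Flt1 (a VEGF receptor, -0.34 ± 0.05), Emcn (endomucin, -0.60 ± 0.12), Tie1 (-0.50 ± 0.12) and Slco1c1, a thyroid hormone transporter (-0.44 ± 0.06). Cldn5, the barrier's tight-junction claudin, differed by -0.01 ± 0.08 (adjusted p = 0.963), and of 12 mural cell markers 1 fell, Vtn (-0.39 ± 0.07). Each omission of 1 library left 2 or 3 endothelial markers higher and 6 to 9 lower.

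Some clock genes and both cold-inducible genes tested were higher. The core clock is a loop in which CLOCK and BMAL1 activate Per and Cry genes, whose proteins then repress them. Of 21 clock genes 7 rose, none fell and 14 did not pass (median 0.12), against 7.64% of all genes higher. The groups did not overlap in 4 of them, against 6.15% of all genes. Per1 read 144, 179, 152, 199.5 and 125 CPM in H2O and 228, 262, 211, 239.6 and 194 CPM in Abx libraries, which overlapped in 1 Abx library (0.50 ± 0.12, adjusted p = 0.0127). Cry2 read 171, 196, 190.5, 188 and 177 CPM in H2O and 251, 241, 223, 244 and 219.7 CPM in Abx libraries, with no overlap (0.35 ± 0.05, adjusted p = 0.00161). Cry1 (0.50 ± 0.09), Ciart, a clock repressor (0.45 ± 0.07), and Bhlhe40, another repressor (0.42 ± 0.05), were also separate between groups, while Per2 (0.37 ± 0.11) and Per3 (0.26 ± 0.07) overlapped. The activators Clock (0.08 ± 0.07, adjusted p = 0.448) and Arntl, which encodes BMAL1 (0.11 ± 0.08, 0.381), did not pass. Nor did Nr1d1 (0.11 ± 0.05, adjusted p = 0.182) or Dbp (-0.17 ± 0.10, 0.264). The time of day of dissection is not given in the labels used here. Between 5 and 8 members were higher when 1 library was left out.

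The E-box CACGTG, the element that CLOCK and BMAL1 bind, was found in 7.15% of all promoters and in 8.09% of genes with a promoter in the table. It was in promoters of 5 of the 18 clock genes in that table (of 21 tested): those of Per1, Cry1 and Ciart, which rose, and in those of Tef and Bhlhe41, which did not pass. CACGTG reads the same on both strands. The promoters of Per1 (chr11:69098699-69098998, plus strand) and Ciart (chr3:95882179-95882478, minus strand) show 1 and 3 copies, in capitals.
Per1: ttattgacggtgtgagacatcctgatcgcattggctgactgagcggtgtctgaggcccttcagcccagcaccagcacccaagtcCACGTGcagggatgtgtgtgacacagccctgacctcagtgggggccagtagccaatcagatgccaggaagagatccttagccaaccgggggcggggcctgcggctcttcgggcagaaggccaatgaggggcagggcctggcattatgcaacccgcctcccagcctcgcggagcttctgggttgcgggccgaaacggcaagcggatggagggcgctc
Ciart: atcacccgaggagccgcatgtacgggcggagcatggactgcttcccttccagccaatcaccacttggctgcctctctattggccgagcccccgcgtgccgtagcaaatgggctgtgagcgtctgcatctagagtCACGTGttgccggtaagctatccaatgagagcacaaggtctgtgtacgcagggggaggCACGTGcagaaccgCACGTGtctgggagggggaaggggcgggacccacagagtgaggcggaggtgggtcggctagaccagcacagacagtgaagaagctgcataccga

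Rbm3, an RNA-binding protein whose RNA rises when cells cool, read 67.5, 65.1, 54.3, 61 and 68.7 CPM in H2O and 125, 108, 124, 113 and 98.4 CPM in Abx libraries (0.84 ± 0.08, adjusted p = 0.000122). Its relative Cirbp read 97.7, 94.6, 66.6, 77.1 and 94.9 CPM in H2O and 148, 130.2, 162, 137 and 123 CPM in Abx libraries (0.70 ± 0.11, adjusted p = 0.00151). Both rose with no overlap, in every fit that left out 1 library.

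Several chaperone genes were lower. Heat-shock proteins fold proteins in the cytosol and chaperones of the endoplasmic reticulum (ER) fold those on the way to the membrane. Of 25 cytosolic heat-shock proteins and cochaperones 11 fell and 2 rose (median -0.16), and of 30 ER chaperones and unfolded protein response genes 7 fell and none rose (median -0.08), against 9.11% of all genes lower. Hsph1, a large heat-shock protein, read 381, 381, 392, 421 and 399 CPM in H2O and 249, 313, 249.5, 269 and 274 CPM in Abx libraries (-0.54 ± 0.06, adjusted p = 0.00046). Pdia6, a disulfide isomerase of the ER, read 114, 104, 105, 106 and 113 CPM in H2O and 79.7, 87.8, 81.3, 82.2 and 82.2 CPM in Abx libraries (-0.39 ± 0.04, adjusted p = 0.00039). Both were separate between groups. Chordc1 (-0.74 ± 0.11), Hspa4 (-0.34 ± 0.05) and the small heat-shock gene Cryab, which is strong in oligodendrocytes (-0.62 ± 0.09), fell, as did the ER lectin chaperone Calr (-0.38 ± 0.05) and Hsp90b1 (-0.24 ± 0.05). The most abundant cytosolic members, Hsp90ab1 (-0.03 ± 0.05, adjusted p = 0.705), Hspa8 (-0.13 ± 0.06, 0.138) and Hsp90aa1 (-0.07 ± 0.08, 0.593), did not pass. Nor did the strongly inducible Hspa1a (0.20, 0.583) and Hspa1b (0.62, 0.244), near-identical genes between which reads can be split, or the ER stress sensor's partner Hspa5 (-0.19, 0.0563). The 2 that rose, Dnajb4 (0.20) and Hspa2 (0.24), did not hold in every fit that left out 1 library. No member passed as higher without H2O replicate 3, Abx replicate 1 or Abx replicate 3, 3 did without H2O replicate 4, and 1 did in each of the others. Leaving out any 1 library left 8 to 12 cytosolic and 6 to 8 ER members lower, and the cortical covariate left 8 and 5.

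Of 29 interferon-response and antigen-presentation genes 5 fell and 1 rose (median -0.18), against 9.11% of all genes lower and 7.64% higher. The mean log2 CPM of the list was 2.25 to 2.31 in H2O and 1.98 to 2.11 in Abx libraries, with no overlap. Isg15, an interferon-induced ubiquitin-like protein, read 2.00, 1.79, 1.91, 1.96 and 2.15 CPM in H2O and 0.452, 0.774, 0.870, 1.24 and 0.935 CPM in Abx libraries, low levels in both (-1.17 ± 0.22, adjusted p = 0.00421). The guanylate-binding protein genes Gbp3 (-0.98 ± 0.15) and Gbp2 (-0.95 ± 0.23), alike in sequence so that reads may be shared, fell. H2-T23 rose (0.31 ± 0.08). Of 21 inflammatory signalling genes 4 fell and 1 rose, against the same shares. Vcam1, an adhesion molecule (-0.59 ± 0.08), and Il33, an alarmin of glia (-0.46 ± 0.11), were lower, and Nfkbia (0.32 ± 0.17, adjusted p = 0.214) and Myd88 (0.00 ± 0.14, 0.985) did not pass. Without Abx replicate 1, 4 or 5 the inflammatory genes that fell numbered 2. Lysosomal genes, of which microglia hold many, fell in 7 of 35 cases (9.11% of all genes fell) and rose in none, with Hexa (-0.55 ± 0.07) and Tpp1 (-0.28 ± 0.05) among them.

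Neuronal identity and opioid genes gave few calls, and some of these values turn on H2O replicate 4. Against 9.11% of all genes lower, of 28 medium spiny neuron markers 1 fell, Gnal, the G protein of striatal dopamine receptors (892 ± 91.6 and 733 ± 45.3 CPM, -0.28 ± 0.07, adjusted p = 0.0174), and it did not pass without Abx replicate 1 (adjusted p = 0.0534). Without H2O replicate 4, 4 of them fell, in a fit with 3010 calls over all genes. With the cortical covariate none of them fell and 2 rose (median 0.02). Neither Drd1a (0.00 ± 0.12, adjusted p = 0.994) nor Drd2 (-0.23 ± 0.14, 0.266), the main striatal dopamine receptors, passed. Of 19 dopamine signalling genes 3 fell, Gnal, the synthesis enzyme gene Th (-0.49 ± 0.13) and the degradation enzyme gene Maob (-0.20 ± 0.06), and each lost its call in at least 1 fit that left out a library (Th at 0.064 without Abx replicate 1 and Maob at 0.106 without H2O replicate 6). With the cortical covariate none of these 19 genes fell and 1 rose. Of 8 opioid receptor and peptide genes Oprk1, the kappa receptor, passed. It read 37.3, 39.1, 32.9, 43.2 and 38.2 CPM in H2O and 50.9, 50.6, 52.5, 41.5 and 50.01 CPM in Abx libraries, where 4 Abx libraries lay above all H2O libraries and replicate 4 did not (0.36 ± 0.08, adjusted p = 0.00919).

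Pdyn, the precursor of the kappa ligand dynorphin, read 394, 428, 230.5, 446 and 392 CPM in H2O and 259, 288, 316, 258 and 292 CPM in Abx libraries. The low H2O value is that of replicate 4, with which the difference was -0.42 ± 0.14 (adjusted p = 0.0607) and without which it was -0.55 (adjusted p = 0.000362). Oprm1, the mu receptor at which morphine acts, read 8.00, 8.35, 4.47, 8.44 and 8.86 CPM in H2O and 4.79, 5.11, 6.25, 5.81 and 5.61 CPM in Abx libraries, and again replicate 4 was the low H2O library. Its difference was -0.46 ± 0.17 (adjusted p = 0.0824) with replicate 4 and -0.60 (adjusted p = 0.00279) without it. Penk, the enkephalin precursor, read 1268, 1268, 846, 1365 and 1300 CPM in H2O and 1086, 1291, 1270, 1083 and 1247 CPM in Abx libraries (-0.02 ± 0.11, adjusted p = 0.935). Thus 2 opioid genes fell without that library and none with it. With the cortical covariate no opioid gene fell either, and the list median was -0.05, against -0.21 without replicate 4. The part of the tissue mix in these differences was not tested.

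Among inhibitory receptor genes, Gabra2, a subunit of the GABA-A receptor, read 39.2, 39.2, 40.4, 41.3 and 40.1 CPM in H2O and 17.5, 25.9, 23.1, 25.3 and 28.3 CPM in Abx libraries, with no overlap (-0.73 ± 0.10, adjusted p = 0.00087). Gabrb1, another subunit of that receptor, read 27.7, 28.3, 26.5, 28.2 and 30.6 CPM in H2O and 19.6, 22.7, 22.3, 21 and 20.6 CPM in Abx libraries, also with no overlap (-0.41 ± 0.06, adjusted p = 0.00161). With Gabbr1 (-0.14 ± 0.04, adjusted p = 0.0395) 3 of 21 GABA genes fell, against 9.11% of all genes. Without H2O replicate 4, 7 of them fell, in a fit in which 1524 of 14361 genes did. With the cortical covariate 2 of them fell. Gabbr1 did not pass in 8 of the 10 fits that left out 1 library, the highest adjusted p being 0.105 without Abx replicate 1. Of 39 glutamate receptor and postsynaptic genes 5 fell and 1 rose, and with 1 library left out those that fell numbered 1 (without H2O replicate 2, Abx replicate 1 or 4), 2 (without H2O replicate 3 or 6, or Abx replicate 2), 3 (without Abx replicate 3) or 7 (without H2O replicate 4). Scn2b, a sodium channel subunit, fell from 466 ± 31.5 to 329 ± 22 CPM (-0.50 ± 0.06, adjusted p = 0.000526).

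Of 33 immediate early genes, which neurons switch on when active, 4 rose, not far from the 7.64% of all genes that were higher. The differences leaned 1 way, with 29 of the 33 above 0 and 4 below (median 0.21, against -0.00 for all genes). Nr4a3, an orphan nuclear receptor, read 9.05, 11.5, 16.5, 16.8 and 6.12 CPM in H2O and 21.7, 23.3, 22.6, 28 and 18.4 CPM in Abx libraries, with no overlap (0.91 ± 0.22, adjusted p = 0.0164). Maff (1.21 ± 0.30), Gadd45b (0.44 ± 0.12) and Per1, also a clock and glucocorticoid gene, were the others. Fos was at 28.1, 28.6, 46.3, 38.7 and 5.55 CPM in H2O and 37.9, 35.5, 28.5, 38.8 and 29 CPM in Abx libraries (0.19 ± 0.35, adjusted p = 0.746), and Arc differed by 0.03 ± 0.33 (0.96). The H2O libraries of Fos ranged more widely than the Abx libraries. Without H2O replicate 4, 8 members rose (median 0.32), in a fit with 3010 calls over all genes. With the cortical covariate 3 members rose and the median was 0.01.

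Genes that handle bacterial metabolites were also examined. Of 9 tested genes for short-chain fatty acid and tryptophan metabolites 3 fell and none rose, against 9.11% of all genes lower. Acss1, the mitochondrial enzyme that activates acetate, read 42.3, 37.8, 41, 37.6 and 52.1 CPM in H2O and 19.6, 25.8, 23.9, 24.7 and 26.1 CPM in Abx libraries, with no overlap (-0.81 ± 0.10, adjusted p = 0.000566). Acss2, its counterpart in cytosol and nucleus (-0.39 ± 0.08, adjusted p = 0.00517), and Slc16a7, a monocarboxylate transporter (-0.67 ± 0.18, 0.0263), fell too, but Slc16a7 did not pass in 4 of the fits that left out 1 library (up to 0.0671 without Abx replicate 4). Of 5 aryl hydrocarbon response genes Nqo1 rose (0.38 ± 0.11, adjusted p = 0.0339), which did not hold in 6 of those fits (up to 0.083 without Abx replicate 3). Among 26 enzymes of histone acetylation, Kat2b rose (0.30 ± 0.06) and 3 deacetylase genes fell by less than 0.25. Of all genes 7.64% were higher and 9.11% lower. Each of these deacetylase genes lost its call in at least 3 of those fits, with Hdac8 at -0.23 ± 0.07 (adjusted p = 0.0495, and 0.114 without Abx replicate 1).

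The largest increases outside these lists were in genes of low level. Itgad, an integrin alpha subunit of leukocytes, read 0.105, 0.224, 0.197, 0.527 and 0.00 CPM in H2O and 3.16, 2.71, 3.64, 3.41 and 2.52 CPM in Abx libraries. H2O replicate 6 had no read, and the lowest Abx library was above the highest H2O library by more than 4-fold (3.75 ± 0.37, adjusted p = 0.000153). Wnt10b, a secreted Wnt ligand, read 1.26, 1.04, 1.18, 1.51 and 0.910 CPM in H2O and 6.68, 4.41, 6.72, 6.12 and 4.32 CPM in Abx libraries (2.24 ± 0.19, adjusted p = 8.05e-05), again with no overlap. The chemokine gene Ccl17 (2.27 ± 0.33), Gabrr2, the rho2 GABA receptor subunit (2.22 ± 0.33), Tmprss6, a membrane serine protease (1.97 ± 0.32), and the phospholipase gene Pla2g3 (1.42 ± 0.20) followed, each with every Abx library above every H2O library. Tnnt1, a troponin, rose by 1.79 (adjusted p = 0.0274) but not without Abx replicate 1 (0.0673) or in 5 other fits that left out 1 library. Adipor2, an adiponectin receptor at a higher level, read 77, 75.6, 81.6, 88.1 and 80.5 CPM in H2O and 131, 121, 128, 130.3 and 114 CPM in Abx libraries, a small difference with little spread (0.63 ± 0.05, adjusted p = 8.05e-05).

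The largest decreases outside the lists were Hist1h2be, a replication-type histone whose copies share sequence (-1.56 ± 0.25), Cd180, a Toll-like receptor relative (-1.39 ± 0.20), Gpx6 (-1.31 ± 0.31), Ninj2 (-1.30 ± 0.23), Glt8d2 (-1.26 ± 0.18), Ankk1, a kinase gene beside Drd2 (-1.25 ± 0.27), Cass4 (-1.20 ± 0.27) and Hk3, a hexokinase of myeloid cells (-1.17 ± 0.30). All but Glt8d2 and Ankk1 averaged under 4 CPM in both groups. Hk3 did not pass without Abx replicate 4 (adjusted p = 0.0516). Genes that fell with little spread include Lman2l, a cargo receptor (45.1 ± 2.02 and 28.4 ± 1.71 CPM, -0.67 ± 0.06, adjusted p = 8.05e-05), and Specc1 (117 ± 5.30 and 80.4 ± 4.55 CPM, -0.54 ± 0.05, 0.000122).

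To ask whether the antibiotic difference itself depended on morphine, the 10 libraries were fitted together with those of 6 H2O saline and 6 Abx saline mice, 22 in all. The saline comparison shares no library with the morphine comparison. It gave 211 calls of 14540 genes (1.45%), 96 higher (0.660%) and 115 lower (0.791%). Of these, 141 were also called in morphine mice, 66.8% of the saline calls and 5.89% of the morphine calls, and all 141 had the same sign. Of 2394 genes called in morphine mice with a saline value, 2091 (87.3%) had the same sign in saline mice, against 67.7% of all genes. The difference was larger under morphine for 2331 of them, and the median saline size was 0.12. Since these genes were chosen by their call under morphine, a larger size there follows in part from the choice, and the interaction is the test of it. Most of the 16 cortical-type markers leaned higher in Abx mice in both settings, though none was called. Under saline 12 had a positive difference (median 0.53), and under morphine 13 did (median 0.41). The part of these markers in the shared signs was not tested.

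By list, saline mice showed 6 of 31 glucocorticoid-response genes higher (Plin4, Sult1a1, Hif3a, Rasd1, Sgk1 and Klf15), 8 of 22 microglia markers lower and 16 of 24 myelin markers lower. Of all genes 0.660% were higher and 0.791% lower in the saline comparison. Plin4 averaged 2.97 ± 1.20 CPM in H2O saline and 17.1 ± 13.4 CPM in Abx saline libraries (2.53 ± 0.40, adjusted p = 0.00364), and its interaction with morphine did not pass (1.21 ± 0.58, adjusted p = 0.385). Trf differed by -0.53 ± 0.07 in saline and -0.55 ± 0.07 in morphine mice (interaction -0.02 ± 0.11, adjusted p = 0.968). Olfml3 (-0.80 ± 0.13 in saline mice, interaction -0.66 ± 0.19, adjusted p = 0.125) and Fcrls (-0.55 ± 0.11, interaction -0.63 ± 0.17, 0.093) had larger differences in morphine mice that did not pass the interaction test.

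The interaction test, edgeR's quasi-likelihood test of the morphine minus the saline difference, called 57 of 14540 genes (0.392%), 23 with a higher and 34 with a lower difference under morphine, and 55 of them are among the calls in morphine mice. At an unadjusted p under 0.05 there were 1834. The glucocorticoid list held 4 of these calls. Cdkn1a averaged 23.4 ± 2.77 CPM with H2O and 24.9 ± 2.34 CPM with Abx under saline, and 18.3 ± 3.35 and 46.8 ± 11.7 CPM under morphine, so that only Abx morphine libraries were high (interaction 1.25 ± 0.19, adjusted p = 0.00615). Fkbp5 averaged 64.6 ± 3.10, 81.2 ± 13.9, 62 ± 6.65 and 134 ± 22.1 CPM in the same order (interaction 0.78 ± 0.15, adjusted p = 0.0205). Map3k6 (0.95 ± 0.19, 0.0214) and Arrdc2 (1.04 ± 0.21, 0.0228) were the others, of which Arrdc2 did not pass without H2O morphine replicate 2 (0.0537).

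Wnt10b had the interaction with the smallest p. It averaged 1.30 ± 0.354 CPM with H2O and 1.12 ± 0.235 CPM with Abx under saline, and 1.18 ± 0.226 and 5.65 ± 1.20 CPM under morphine (interaction 2.46 ± 0.30, adjusted p = 0.000374). Fabp7 averaged 26.1 ± 2.33, 22 ± 3.92, 28.8 ± 3.92 and 10.9 ± 1.49 CPM in that order, low only in the last group (interaction -1.15 ± 0.16, adjusted p = 0.00223). Mfsd2a, the barrier transporter, averaged 30.5 ± 4.45, 33.2 ± 4.40, 26.4 ± 1.70 and 45.8 ± 2.73 CPM (0.67 ± 0.13, adjusted p = 0.0211). Cldn11, a myelin claudin, was lower in Abx saline mice (-0.30 ± 0.06, adjusted p = 0.00995) and not in Abx morphine mice (0.07 ± 0.05, 0.344), and this difference passed the interaction test (0.37 ± 0.08, 0.0417). None of the 22 microglia markers passed it. Leaving out 1 library moved the interaction calls from 28, without H2O morphine replicate 2, to 95, without Abx morphine replicate 5. They numbered 35 without H2O saline replicate 3, Abx saline replicate 1 or Abx morphine replicate 1, 37 without H2O saline replicate 5, and 33 without Abx morphine replicate 3.

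**Figure D5:**
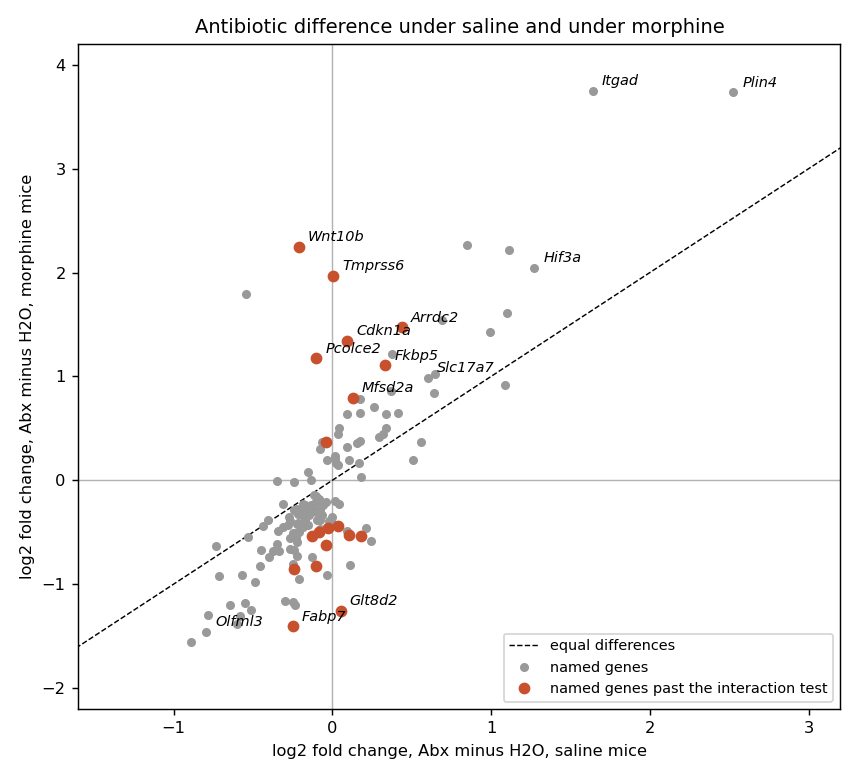
Log2 difference between Abx and H2O mice under saline (horizontal) and under morphine (vertical) for the 148 named genes, both from the fit of 22 libraries, each point a gene; rust-coloured points passed the interaction test and the dashed line marks equal differences. Wnt10b, at -0.21 under saline and 2.25 under morphine, and Fabp7, at -0.25 and -1.40, lie far from the line, and Plin4, at 2.53 and 3.74, is large under both.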

How the data were processed

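Bulk polyA RNA-seq of nucleus accumbens was analysed from the gene counts the authors deposited. Per the labels' protocols, RNA was extracted with TRIzol and made into cDNA with a SMARTer kit before shearing. STAR 2.4.0, FastQC and edgeR are named in the processing, per the submitters' processing notes. The build, annotation, counter and strandedness remain not given in the sources used here, so a gene and an antisense neighbour cannot be separated. The table held 24061 rows naming a gene. Its 5 tally rows (21.0 to 23.6% of tallied reads went to no gene) and 27 rows whose names had become dates were left out, and the normalised table was not used.

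Genes passing edgeR's filterByExpr (minimum count 10) were fitted by quasi-likelihood with TMM factors (R 4.3.3, edgeR 4.0.16) on the 10 libraries, since earlier results had shown unequal spread between groups. The saline and interaction tests used 22 libraries. CPM used TMM library sizes, and a list's level is its mean log2 CPM (prior count 2). The 39 lists, the tests and the groups compared were chosen with earlier results of these data known. Named genes were the 12 largest changes (mean of 2 CPM or more) and 6 smallest p-values in each direction, up to 4 per list, 6 interactions in each direction and a set chosen by name, leaving out gene models, pseudogenes, ribosomal and mitochondrial genes. Other list members were named after their values were seen, and a few genes are not reported here. Alternatives were DESeq2 1.42.0, voom with sample weights (limma 3.58.1), other scaling factors and filters, the 22 or 33 libraries, a replicate block, the cortical marker level as covariate, and leaving out each library. On simulated counts with 200 changed genes, the test of 10 libraries recovered 64.3% of 1.5-fold and 85.0% of 2-fold changes (14223 genes), and 2.63% of its calls were not planted. The interaction recovered 63.0% and 78.0% (14451 genes), with 6.62% not planted. Promoters came from RefSeq's GRCm38.p6 table.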

Additional observations from a re-analysis of the deposited data

Results flagged for a closer look

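In groups of 5 libraries, a library was singled out where its gap to the nearest other exceeded Dixon's 95% critical value of 0.71 times the range. Of 134 groups of values tested 11 had such a library, and chance gives about 1 in 20. H2O replicate 4 was the library in 5 of them. Slc17a7 was at 996 CPM there against 3.48 to 124 CPM in the other H2O morphine libraries, and Bdnf, a neurotrophin of cortical neurons, at 12.9 against 0.579 to 1.94 CPM. Pdyn was at 230 against 392 to 446 CPM, Oprm1 at 4.47 against 8 to 8.86 CPM, and Penk at 846 against 1268 to 1365 CPM. Pla2g3 was high in H2O replicate 6 (2.15 against 1.26 to 1.51 CPM) and Glt8d2 in H2O replicate 5 (13.7 against 8.09 to 9.44 CPM). The mean log2 CPM of striatal interneuron markers was low in H2O replicate 5 (4.39 against 4.65 to 4.69). Among Abx morphine libraries, replicate 1 was low for Plxna3 (22.3 against 28.5 to 30.8 CPM) and high for Mbp (2669 against 2309 to 2385 CPM), and replicate 4 was low for Oprk1 (41.5 against 50 to 52.5 CPM).

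Of 54 named genes whose interaction was examined, 18 had an antibiotic difference that itself differed between morphine and saline mice, by edgeR's quasi-likelihood test of the interaction (adjusted p under 0.05). Of the genes examined 12 had been named for their interaction, so this count follows in part from that choice. The interaction was positive for Wnt10b (2.46), Tmprss6 (1.96), Pcolce2 (1.28), Cdkn1a (1.25), Arrdc2 (1.04), Fkbp5 (0.78), Mfsd2a (0.67) and Dbndd2 (0.41). It was negative for Glt8d2 (-1.31), Fabp7 (-1.15), Stxbp4 (-0.72), Plxna3 (-0.72), Igdcc4 (-0.63), Fer1l5 (-0.61), Pycrl (-0.58), Mtss1l (-0.48), Specc1 (-0.41) and Tmco3 (-0.41). Of these, Arrdc2 did not pass without H2O morphine replicate 2 (adjusted p = 0.0537), Glt8d2 without Abx morphine replicate 3 (0.0776) and Tmprss6 without Abx morphine replicate 3 (0.0902).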

How the results depend on the processing

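The count of 2395 calls stayed within 1.5 times with DESeq2 (2580), voom (3008), other scaling factors (2387 and 2366), other filters (2131 and 2384), the cortical covariate (2206, of which 1695 shared) and the 22 libraries (2642). It fell to 1507 (1437 shared) in the fit of all 33 libraries. The share of calls that were higher lay between 43.8 and 49.4% in all settings. Leaving out 1 library gave 1618 to 3010 calls. The 57 interaction calls became 185 with DESeq2, 123 with voom, 161 with the covariate and 16 with all 33 libraries, and 28 to 95 on leaving out 1 library. The cause of these shifts was not tested.

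Replicate numbers 2 to 5 occur in both morphine groups. The deviations of same-numbered libraries from their group means had r of -0.26, 0.115, 0.192 and -0.0412, and the main fit did not treat the numbers as pairs. Whether same-numbered libraries shared a cage or batch is not given in the labels used here and was not tested. A replicate block left 500 calls (491 shared) and 6 interaction calls. Restricted to the libraries of shared numbers, 499 calls were made with the block and 1070 without it, the latter an alternative chosen after seeing the data.

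Of 134 named genes called, 104 kept the call whichever library was left out. The others lost it in at least 1 such fit, at most to an adjusted p of 0.114. Most named genes were chosen for a small p or a large change, so the count that kept the call follows in part from that choice. Calls lost numbered 2 with DESeq2, 1 with voom, 21 with the covariate, 31 with all 33 libraries and 60 with the block. Of 4732 single values under an alternative 4218 kept their side of the threshold, 443 no longer passed, 38 newly passed, 33 list medians moved by more than their spread, and none reversed. At 9490687 to 15330947 counted reads a library, genes near 1 CPM rest on few reads.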

Other observations

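Of 26 tested genes of the extracellular matrix 2 rose and 5 fell, against 7.64% and 9.11% of all genes. Both that rose are chains of collagen VI, Col6a2 (0.65 ± 0.11, adjusted p = 0.00228) and Col6a1 (0.34 ± 0.09, 0.0247). Those that fell include the fibrillar collagen genes Col3a1 (-0.82 ± 0.17, 0.00695) and Col1a1 (-0.58 ± 0.15, 0.0186) and Nid1, a basement membrane protein (-0.51 ± 0.11, 0.0085). The growth factor gene Igf2 (-0.38 ± 0.10, 0.0281) and Igfbp2, which binds it (-0.70 ± 0.22, 0.0476), fell too, and both are made in meninges and choroid plexus. Of 11 ependymal and choroid plexus markers 1 fell.

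Housekeeping machinery gave few calls. Of 75 nuclear subunits of oxidative phosphorylation 3 rose and 4 fell, shares of the size of those of all genes or smaller, and of 73 cytosolic ribosomal proteins 1 rose, Rpl14 (0.20 ± 0.04, adjusted p = 0.0116). Of 24 genes of cholesterol synthesis and uptake, Lss (0.32 ± 0.06) and Fdft1 (0.19 ± 0.06) rose, and Dhcr7 (-0.34 ± 0.06) and Srebf2, the regulator of the pathway (-0.24 ± 0.07), fell. These 2 higher and 2 lower of 24 stand beside 7.64% of all genes higher and 9.11% lower. With the cortical covariate 10 of the 24 fell and 1 rose.

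Counts of ion channel and release genes moved with H2O replicate 4, as did calls over all genes (2395 with it and 3010 without it). Against 7.64% of all genes higher and 9.11% lower, 1 of 43 potassium channel genes rose and 3 fell. Without that library 10 rose and 4 fell. Kcnj10, the inward rectifier of astrocytes, was among those that fell (-0.41 ± 0.08, adjusted p = 0.00555). Of 29 sodium and calcium channel genes none rose and 2 fell, and 5 rose and 6 fell without it. Of 33 genes of synaptic vesicle release none rose and 2 fell, and 7 rose and 5 fell without it. With the cortical covariate 1 rose and 4 fell among potassium channel genes, and 1 rose and 3 fell among sodium and calcium channel genes. Among release genes none rose and 7 fell with it. Among serotonin receptors Htr2a (0.63 ± 0.18, adjusted p = 0.0282) and Htr3a (0.86 ± 0.27, 0.0473) rose, but Htr2a did not pass without H2O replicate 6 (0.0647) nor Htr3a without Abx replicate 1 (0.109).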
